A study of Homo sapiens and Mus musculus with 36 samples.

Results

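Aminoacyl-tRNA synthetases were followed in human HepaRG cells exposed to cholestatic drugs and in livers of mice with an obstructed bile duct. They were picked by symbol: 1 letter followed by ARS, with an optional final 1, 2, A or B, plus EPRS or EPRS1. On the human array 35 symbols met this rule, and 32 of them had a probe set of their own among 19775 genes tested. The other 3 symbols occurred only on probe sets that carry a second symbol and were not analysed. Of the 32, 15 act in the cytosol (4 of them in the multisynthetase complex), 15 in mitochondria and 2 in both compartments. The mouse array measured 35 synthetase genes among 18193, with 17 cytosolic, 16 mitochondrial and 2 acting in both compartments.

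All 24 human arrays come from HepaRG, a liver tumour line whose cells can take on a hepatocyte or a bile duct character, thawed in the differentiated state. There were 8 groups of 3 arrays, all sampled after 72 h: the vehicle control, a bile acid mixture concentrated 50 times (the mix), 60 µM atazanavir, 20 µM cyclosporin A, 30 µM nefazodone, and each drug together with the mix. Atazanavir is an HIV protease inhibitor, cyclosporin A an immunosuppressant and nefazodone an antidepressant. The 12 mice were of the Sv129 strain, 6 with common bile duct ligation (CBDL) and 6 sham-operated animals whose duct was exposed without ligation, with liver RNA taken 6 weeks after surgery. RNA was hybridised to Affymetrix 3′ arrays, and every level below is a log2 value after robust multi-array averaging (RMA), so that a difference of 1 is 2-fold.

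An aminoacyl-tRNA synthetase joins an amino acid to the tRNAs that carry it, the step that sets which residue each codon receives. Human cells keep separate nuclear genes for most cytosolic and mitochondrial enzymes, whereas GARS1 (glycine) and KARS1 (lysine) each supply both compartments. Several cytosolic enzymes are held in a complex with scaffold proteins such as AIMP1. Many cytosolic synthetase genes are known targets of ATF4, the transcription factor of the integrated stress response, which slows general translation while raising genes of amino acid supply. ATF4 acts with C/EBP proteins at a composite element whose core reads TGATGNAA.

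That core was searched for on both strands in RefSeq promoters (GRCh38.p14, 250 bases before to 50 after a start site), and 27 of the 32 human genes had an entry. It was found in 7 of the 27, which is 25.9%, against 4.46% of 27305 genes and 3.62% of 35116 promoters. The 7 comprised 5 of 12 cytosolic genes, 1 of 2 genes of both compartments and 1 of 13 mitochondrial genes. The windows are shown because they hold the letters a reader would look for beside the drug responses. Each is 30 bases on the strand of its gene, with the match in capitals, and TTGCATCA is TGATGCAA read on the other strand.
AARS1: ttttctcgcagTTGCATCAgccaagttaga
CARS1: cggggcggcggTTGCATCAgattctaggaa
IARS1: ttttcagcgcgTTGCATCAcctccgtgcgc
NARS1: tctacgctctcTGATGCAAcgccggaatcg
TARS1: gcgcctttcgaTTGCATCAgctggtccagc
GARS1: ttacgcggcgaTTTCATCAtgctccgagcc
YARS2: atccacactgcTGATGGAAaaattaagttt

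The AARS1 window lies at chr16:70289675-70289704 on the minus strand and its match begins at position -187 relative to the start site. The CARS1 window (chr11:3057407-3057436, minus), the IARS1 window (chr9:92293692-92293721, minus), the NARS1 window (chr18:57621804-57621833, minus) and the TARS1 window (chr5:33440956-33440985, plus) lie across or next to the start site. The GARS1 match begins at position -33 (chr7:30594834-30594863, plus). The YARS2 match begins at position -197 (chr12:32756076-32756105, minus) and is the only mitochondrial one. A match is a run of letters and not a measured binding site. The genes AARS2, LARS1, VARS1, VARS2 and YARS1 had no entry.

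The core of the NRF1 element, known from genes of mitochondrial function, was searched for in the same way and found in 6 of the 27 genes (22.2%), against 6.98% of all genes. It was in 3 of 12 cytosolic genes (FARSB, SARS1 and TARS1) and 3 of 13 mitochondrial genes (IARS2, MARS2 and PARS2).

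Arrays of a group correlated at 0.9908 or more in HepaRG cells and 0.9805 or more in mouse liver, and array medians ranged from 4.24 to 4.38 and from 5.38 to 5.49. The hepatocyte markers checked the label of the human cells: 9 of 10 were measured and their mean level was 12.91 in control cells. The mean of these markers was lower in every treated group, at 12.01 with the mix, between 9.76 and 10.22 on the arrays with atazanavir, 11.06 with cyclosporin A and 10.27 with nefazodone, and at 10.80, 9.03 and 10.19 with the same drugs plus the mix. Called lower were 9 of 9 with atazanavir, 8 of 9 with cyclosporin A and 9 of 9 with nefazodone, so the drug results below stand beside a fall of hepatocyte transcripts, and the part of that fall in them was not tested. Of 7 cholangiocyte markers, whose mean was 5.72 in control cells, 4 rose and 1 fell with cyclosporin A (mean 5.85) and with nefazodone (mean 6.25), and 1 fell with atazanavir (mean 5.66). As a sign of RNA quality, GAPDH read from 3′ probes exceeded GAPDH read from 5′ probes by 0.53 in control cells and by between 0.49 and 0.66 in the treated groups. In bulk RNA, fewer cells of a type and less RNA per cell cannot be told apart.

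Cytosolic synthetase transcripts rose with each drug, and the mitochondrial set moved in both directions by small amounts. With atazanavir 14 of 15 cytosolic genes rose and none fell, with a median change of 0.70. With cyclosporin A 13 of 15 rose and none fell, with a median of 1.12, and with nefazodone 13 of 15 rose and none fell, with a median of 1.28. The shares of all 19775 genes called higher were 22.2%, 22.2% and 25%, and called in either direction 35.4%, 40.8% and 45.5%, of which 13.2%, 18.5% and 20.6% were lower, with all-gene medians of 0.02, 0.04 and 0.01. Of the 15 mitochondrial genes, 7 rose and 1 fell with atazanavir (median 0.18), 3 rose and 4 fell with cyclosporin A (median 0.04), and 5 rose and 3 fell with nefazodone (median -0.01). In either direction that is 8, 7 and 8 of 15, close to the shares of all genes for the last 2 drugs. The 3 comparisons share the same control arrays. A call is an adjusted p under 0.05 in limma, Benjamini-Hochberg adjusted over all genes, from 1 fit of the 24 arrays.

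**Figure D1:**
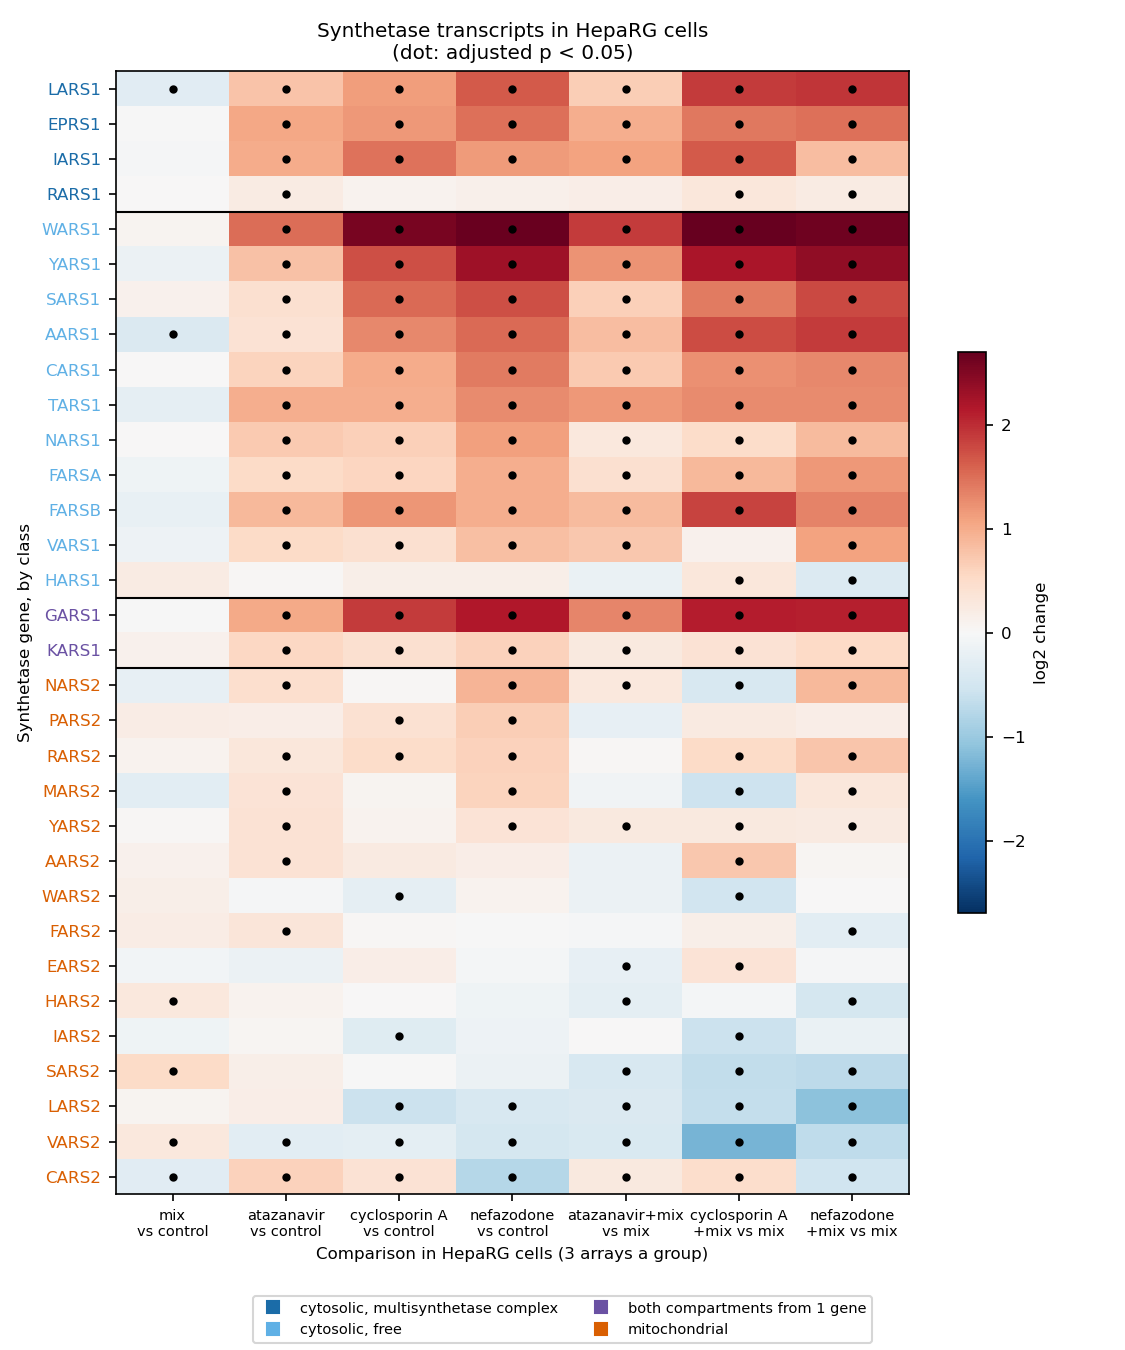
Log2 change of 32 synthetase genes (rows, grouped and coloured by class) in 7 HepaRG comparisons (columns, 3 arrays a group), with a dot where the adjusted p is under 0.05. The cytosolic rows and GARS1 are red in all 6 drug columns apart from HARS1, RARS1 (0.30 or less) and VARS1 with cyclosporin A plus the mix (0.12, not called). HARS1 is blue with nefazodone plus the mix (-0.36) and with atazanavir plus the mix (-0.17, not called). The strongest blue is VARS2 with cyclosporin A plus the mix (-1.25).

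The sizes of the changes differed between the classes and overlapped: CARS2 rose by 0.62 with atazanavir and NARS2 by 0.91 with nefazodone, more than VARS1 with the same drugs, 0.52 and 0.82. Changes of 2-fold or more were called in 3 cytosolic genes with atazanavir, 9 with cyclosporin A and 10 with nefazodone, and in 0 of 15 mitochondrial genes with any of these drugs. Of all genes, 1.93%, 2.9% and 6.33% rose that far. On single arrays, the mean of the cytosolic class lay between 0.66 and 0.74 above the control mean with atazanavir, between 1.02 and 1.12 with cyclosporin A and between 1.29 and 1.30 with nefazodone. The mean of the mitochondrial class lay between 0.16 and 0.22, between 0.02 and 0.05, and between 0.06 and 0.13 on the same arrays. Within each drug group the array means of the classes did not overlap. The difference between classes is given as a description, with no test over the members. The classes also differ in level. Mean levels over the arrays ran from 5.63 to 10.21 for mitochondrial genes and from 7.05 to 11.88 for cytosolic ones. The part of level in the sizes of the changes was not tested.

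**Figure D2:**
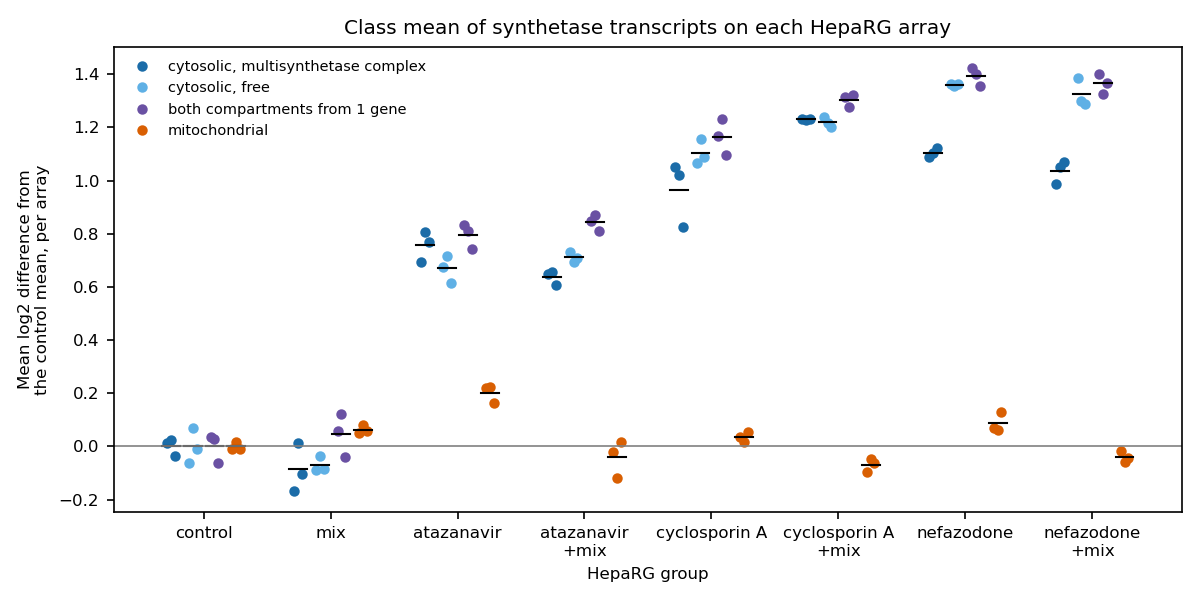
Mean log2 difference from the control mean over the genes of each class (vertical axis) on each of the 24 HepaRG arrays, by group (horizontal axis), with a bar at the mean of 3 arrays. Cytosolic and dual-compartment classes lie at 0.61 or above on every drug-treated array, and the mitochondrial class lies between -0.12 and 0.22 on all arrays.

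WARS1, the cytosolic tryptophanyl enzyme, had the largest change of all members with each drug. Its level was 7.54, 7.61 and 7.70 on the control arrays. It was 9.06, 9.07 and 9.22 with atazanavir, 10.10, 10.18 and 10.29 with cyclosporin A, and 10.26, 10.27 and 10.34 with nefazodone. All drug arrays lay above all control arrays, and the atazanavir arrays lay below those of the other drugs. The change was 1.5 ± 0.07 (SE, n = 3 a group; limma adjusted p = 2.97e-12) with atazanavir, 2.57 ± 0.07 (limma adjusted p = 3.59e-16) with cyclosporin A and 2.67 ± 0.07 (limma adjusted p = 4.19e-17) with nefazodone. The other WARS1 probe set gave 1.30, 2.36 and 2.41. WARS1 is also known as an interferon-induced gene. In a list of GAPDH and interferon reporters, 5 of 6 genes were measured. Of these, 2 were called higher and 2 lower with atazanavir, 1 and 1 with cyclosporin A, and 1 and 3 with nefazodone. Among them IRF1 rose with all 3 drugs, from 6.09 to 6.43, 7.02 and 7.51, whereas GBP2 fell from 8.08 to 7.46, 7.53 and 7.44. The part of interferon in the WARS1 changes was not tested.

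YARS1, which charges tyrosine tRNA, had the second largest change with nefazodone and a middling one with atazanavir. Control arrays read 8.50, 8.51 and 8.55, atazanavir arrays 9.28, 9.30 and 9.37, cyclosporin A arrays 10.20, 10.23 and 10.31, and nefazodone arrays 10.78, 10.79 and 10.83. The groups did not overlap and stood in that order, with changes of 0.80, 1.73 and 2.28 (SE 0.06 each) and limma adjusted p of 3.23e-09, 1.38e-14 and 6.85e-17. A dimmer YARS1 probe set, with a mean level of 5.20, gave 0.11, 0.76 and 0.80, so the size of the change depends on the probe set.

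SARS1, the cytosolic seryl enzyme, stood at 9.20, 9.34 and 9.34 in control cells and at 9.60, 9.78 and 9.79 with atazanavir. With cyclosporin A it was at 10.69, 10.81 and 10.95, and with nefazodone at 10.96, 11.07 and 11.09. The change was small with atazanavir, 0.43 ± 0.08 (limma adjusted p = 0.000143), and large with cyclosporin A, 1.52, and nefazodone, 1.75. The second SARS1 probe set gave 1.33, 1.69 and 2.14, so the small atazanavir value is not shared by both. AARS1, the alanyl enzyme, gave a similar order from its only probe set. Its control arrays read 8.36, 8.40 and 8.46, against 8.75, 8.81 and 8.82 with atazanavir, 9.52, 9.71 and 9.90 with cyclosporin A and 9.92, 9.92 and 9.96 with nefazodone. The changes were 0.38, 1.30 and 1.53 (SE 0.08 each), and all drug arrays lay above the control arrays.

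The remaining free cytosolic enzymes rose between 0.43 and 1.40, with the exception of HARS1. TARS1 (threonine) rose by 0.99, 0.99 and 1.28 with atazanavir, cyclosporin A and nefazodone, and its other probe set, at a mean level of 3.77, gave 0.33, 0.71 and 1.51, the first not called (limma adjusted p = 0.264). CARS1 (cysteine) rose by 0.61, 1.01 and 1.40, and NARS1 (asparagine) by 0.70, 0.65 and 1.11. FARSA and FARSB, which encode the subunits of the phenylalanyl enzyme, rose by 0.51, 0.58 and 0.99 and by 0.87, 1.19 and 0.98. VARS1 (valine) rose by 0.52, 0.43 and 0.82, with 0.12, 0.72 and 1.13 from its second probe set, the first of these not called (limma adjusted p = 0.424). HARS1, the histidyl enzyme, was at 8.23, 8.25 and 8.37 in control cells and overlapped these values in each drug group, with changes of 0.03, 0.16 and 0.16 that were not called (limma adjusted p = 0.804, 0.121 and 0.119).

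Of the 4 measured enzymes of the multisynthetase complex that act only in the cytosol, 3 rose with every drug. EPRS1, a fused enzyme that charges both glutamate and proline tRNAs, read 9.40, 9.60 and 9.76 in control cells. It read 10.50, 10.69 and 10.70 with atazanavir, 10.29, 11.01 and 11.02 with cyclosporin A, and 11.02, 11.09 and 11.10 with nefazodone. No drug array overlapped the controls, and 1 cyclosporin A array lay well below the others. The changes were 1.04, 1.18 and 1.48 (SE 0.15 each; limma adjusted p = 1.23e-05, 1.72e-06 and 3.51e-08). IARS1 (isoleucine) read 10.52, 10.53 and 10.63 in control cells, 11.53, 11.53 and 11.62 with atazanavir, 11.96, 12.02 and 12.09 with cyclosporin A and 11.57, 11.63 and 11.97 with nefazodone. Here the cyclosporin A change of 1.46 exceeded the nefazodone change of 1.16, a difference of 0.30 ± 0.09 (limma adjusted p = 0.00826). That call was lost without nefazodone replicate 2, when the difference was 0.22 and the limma adjusted p 0.0701.

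LARS1, the leucyl enzyme, which is also known as a leucine sensor of the mTORC1 pathway, rose by 0.77, 1.12 and 1.65. Of its 4 probe sets, 3 gave positive changes with nefazodone (1.65, 1.28 and 1.27) and the x-type probe set gave -0.16, so the result rests on the 3. RARS1 (arginine) was the least changed member of the complex, at 9.81, 9.89 and 9.92 in control cells and 0.22, 0.09 and 0.13 higher with the drugs. Only the atazanavir value was called (limma adjusted p = 0.0201), and not without control replicate 2 or atazanavir replicate 2, when limma adjusted p was 0.0845 or 0.106. AIMP1, the scaffold gene with its own probe set on the human array, rose with all drugs, by 0.60, 0.71 and 1.30.

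GARS1 and KARS1, each serving cytosol and mitochondria, both rose with all 3 drugs. GARS1 read 10.33, 10.46 and 10.46 on control arrays, 11.34, 11.49 and 11.49 with atazanavir, 12.18, 12.31 and 12.45 with cyclosporin A and 12.56, 12.58 and 12.61 with nefazodone. Its changes of 1.03, 1.89 and 2.17 (SE 0.08 each; limma adjusted p = 2.02e-09, 6.78e-14 and 2.91e-15) were among the 4 largest with each drug. KARS1 read 11.40, 11.45 and 11.47 in control cells, 11.98, 12 and 12.03 with atazanavir, 11.87, 11.87 and 11.88 with cyclosporin A and 12, 12.08 and 12.09 with nefazodone, and its changes were 0.56, 0.43 and 0.62 (SE 0.06 each). GARS1 thus resembled the strongest cytosolic genes in size, and KARS1 the weaker ones, and the second KARS1 probe set gave nearly the same values (0.53, 0.50 and 0.60).

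Among mitochondrial synthetases the calls went in both directions with each drug, and 1 gene, CARS2, was called in opposite directions between drugs. This gene, which encodes the mitochondrial cysteinyl enzyme, read 7.72, 7.81 and 7.89 in control cells, 8.28, 8.44 and 8.56 with atazanavir, 8.11, 8.20 and 8.26 with cyclosporin A and 6.99, 7.07 and 7.09 with nefazodone. It rose by 0.62 and 0.38 and fell by 0.76 with nefazodone (SE 0.09 each), and no drug array overlapped the controls. The difference between atazanavir and nefazodone was 1.38 ± 0.09 (limma adjusted p = 2.67e-11). Its 4 other probe sets had mean levels between 2.11 and 4.51, and with the mean of all 5 the cyclosporin A change of CARS2 was 0.16 and not called (limma adjusted p = 0.0626).

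NARS2 (asparagine) was higher with nefazodone, at 8.25, 8.26 and 8.35, than in control cells, at 7.31, 7.35 and 7.47, a change of 0.91 ± 0.09 (limma adjusted p = 1.31e-08). It rose by 0.46 with atazanavir and its change of 0.04 with cyclosporin A was not called. RARS2 (arginine) rose with each drug, by 0.31, 0.49 and 0.62. Its atazanavir call was lost with the mean of its probe sets (0.05, limma adjusted p = 0.493) and with the most variable one (0.18, limma adjusted p = 0.187). PARS2 (proline) rose with cyclosporin A and nefazodone, by 0.42 and 0.66, YARS2 (tyrosine) with atazanavir and nefazodone, by 0.38 and 0.36, and MARS2 (methionine) with the same drugs, by 0.37 and 0.61. The MARS2 call with atazanavir was lost without control replicate 1 (0.31, limma adjusted p = 0.0713).

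LARS2 and VARS2 were the mitochondrial genes that fell with more than 1 drug. LARS2, the mitochondrial leucyl enzyme, read 7.51, 7.59 and 7.67 in control cells and 7.73, 7.76 and 7.81 with atazanavir. It read 6.81, 7.12 and 7.13 with cyclosporin A and 7.03, 7.06 and 7.36 with nefazodone. The latter groups lay below all controls, with falls of 0.57 and 0.44 (SE 0.09; limma adjusted p = 2.78e-05 and 0.000346), and the atazanavir value of 0.18 was not called. VARS2, the valyl enzyme, read 8.44, 8.47 and 8.47 in control cells and fell by 0.29 with atazanavir, 0.27 with cyclosporin A and 0.48 with nefazodone. The cyclosporin A call was lost without replicate 1 of that drug (limma adjusted p = 0.0695). IARS2 and WARS2 fell with cyclosporin A only among the 3 drugs, by 0.33 and 0.25, and a second WARS2 probe set gave 0.12 instead.

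**Figure D3:**
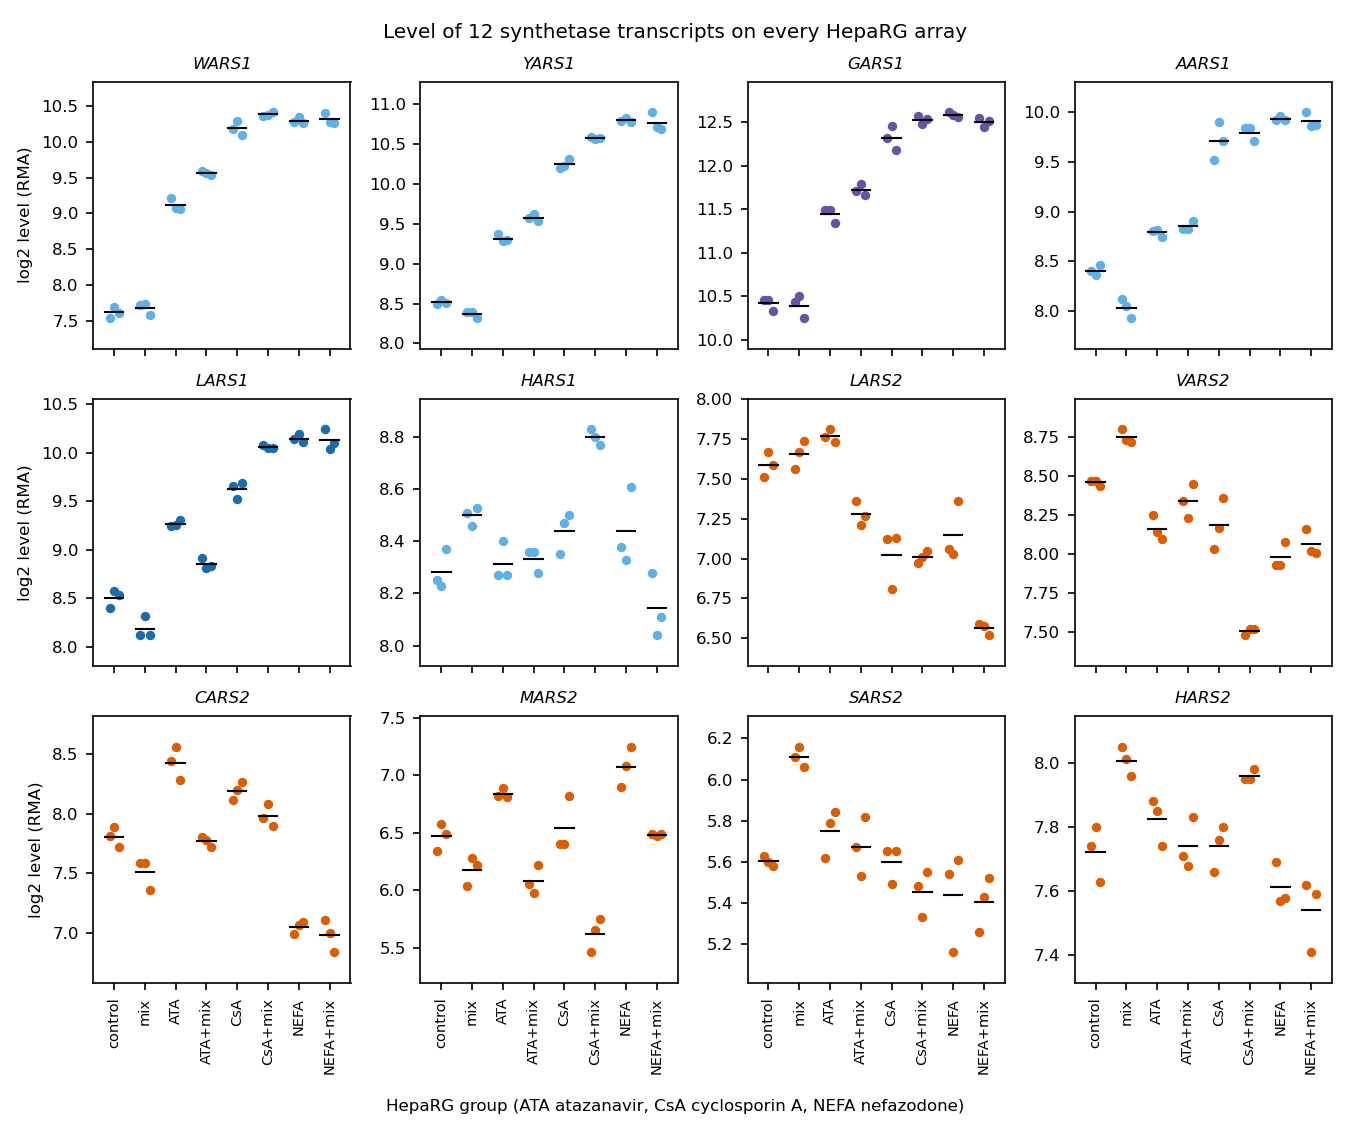
Log2 level of 12 synthetase transcripts (vertical axes, each on its own scale) on each of the 24 HepaRG arrays by group, with a bar at the mean of 3 arrays. WARS1, YARS1, GARS1, AARS1 and LARS1 are above the control range in all 6 drug groups, whereas the mitochondrial genes in the lower rows differ in which groups are high and which are low.

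The drugs were used at different concentrations, so the size of the response could reflect the dose as well as the drug. Side by side, 8 of 15 cytosolic genes were lower with atazanavir than with cyclosporin A and 11 of 15 lower than with nefazodone, and none was higher in either comparison. The shares of all genes called lower were 20.3% and 20.1%, those called higher 19.8% and 19.7%, and those called in either direction 40.1% and 39.9%. The largest such differences were SARS1, -1.09, and WARS1, -1.08, against cyclosporin A, and YARS1, -1.48, and SARS1, -1.31, against nefazodone. For SARS1 and YARS1 these sizes depend on the probe set, since the second one of each gave smaller gaps between these drugs. Between cyclosporin A and nefazodone, 9 cytosolic genes were lower and 1 (IARS1) was higher with cyclosporin A, where 19.4% and 17.6% of all genes were called and 37% in either direction. Of 15 mitochondrial genes, 8 were higher and 2 lower with atazanavir than with cyclosporin A, with LARS2 highest at 0.75. That split became 5 and 3 with quantile normalization and 6 and 3 with median centring. With only the compared groups in the fit, the higher calls of CARS2, FARS2, IARS2, MARS2, WARS2 and YARS2 and the lower call of RARS2 were lost. For atazanavir against nefazodone 5 mitochondrial genes were higher and 3 lower, which became 3 higher and 5 lower with median centring. Over all 32 genes the splits were 8 higher and 11 lower for atazanavir against cyclosporin A (5 and 12 with quantile normalization), 5 and 15 for atazanavir against nefazodone (3 and 19 with median centring), and 3 and 15 for cyclosporin A against nefazodone (6 and 12 with quantile normalization).

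The mix without a drug changed few synthetase genes. In it 6 of 32 were called, 3 higher and 3 lower (18.8%, against 10.1% of all genes, with 6.78% higher and 3.37% lower), and no cytosolic gene rose. SARS2, the mitochondrial seryl enzyme, was at 5.58, 5.60 and 5.63 in control cells and at 6.06, 6.11 and 6.16 with the mix, a rise of 0.51 ± 0.11 (limma adjusted p = 0.00269) without overlap. AARS1 fell from 8.36, 8.40 and 8.46 to 7.93, 8.05 and 8.12, by 0.38 ± 0.08 (limma adjusted p = 0.00419), and LARS1 from 8.40, 8.53 and 8.57 to 8.12, 8.12 and 8.32, by 0.31. These 3 calls held without any 1 array, and that of LARS1 was lost with the mean of its probe sets. The split became 3 higher and 6 lower with quantile normalization and 3 higher and 7 lower with median centring. HARS2 and VARS2 rose by 0.28 and 0.29 and CARS2 fell by 0.30. The HARS2 call was lost without control replicate 3 or mix replicate 1 (limma adjusted p = 0.092 and 0.0634). The VARS2 call was lost without any 1 of 5 of the 6 arrays, at limma adjusted p of 0.0516 to 0.0869, and the CARS2 call without any 1 of 3, at 0.0747 to 0.167. WARS1, GARS1, KARS1, EPRS1 and LARS2 changed by 0.07, -0.02, 0.12, -0.01 and 0.07 and were not called.

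In the presence of the mix, the drugs raised the cytosolic set as before. Against the mix, atazanavir with the mix raised 13 of 15 cytosolic genes (median 0.72), cyclosporin A with the mix 14 of 15 (median 1.40), and nefazodone with the mix 14 of 15 (median 1.30), with HARS1 lower in the last. The shares of all genes called higher were 15.1%, 25.7% and 24.8%, and called in either direction 28.5%, 51.1% and 49.6%. Mitochondrial calls in the values as deposited were 3 higher and 5 lower, 5 higher and 7 lower, and 4 higher and 6 lower of 15, against 13.3%, 25.5% and 24.8% of all genes called lower. WARS1 again changed most, by 1.88, 2.69 and 2.63, and stood at 9.54, 9.56 and 9.59 with atazanavir plus the mix against 7.58, 7.72 and 7.74 with the mix. The 2 largest falls were VARS2 with cyclosporin A plus the mix, -1.25 ± 0.08 (limma adjusted p = 1.36e-11), and LARS2 with nefazodone plus the mix, -1.10 ± 0.09 (limma adjusted p = 1.04e-09). VARS2 read 7.48, 7.52 and 7.52 there against 8.72, 8.73 and 8.80 with the mix, and LARS2 6.52, 6.58 and 6.59 against 7.56, 7.67 and 7.74, both without overlap. With median centring the mitochondrial split was 8 higher and 6 lower with cyclosporin A plus the mix and 6 higher and 5 lower with nefazodone plus the mix, and quantile normalization gave 7 and 7 for the former, so the excess of lower calls depends on the scaling. Centring each array on its median moved the median of all genes by 0.26 with cyclosporin A plus the mix and by 0.20 with nefazodone plus the mix, towards higher values, and 15 and 14 cytosolic genes were then called higher.

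Adding the mix to a drug was compared with the drug without it. The mix then lowered 5, 4 and 2 of 15 mitochondrial genes with atazanavir, cyclosporin A and nefazodone and raised 0, 3 and 1. In either direction that is 33.3%, 46.7% and 20%, against 19.2%, 36.8% and 15.5% of all genes. Of all genes 10.3%, 18.4% and 7.92% were called lower and 8.95%, 18.4% and 7.55% higher. The change of MARS2 was the largest or among the 2 largest with each drug. With atazanavir it went from 6.81, 6.82 and 6.89 to 5.98, 6.05 and 6.22 (-0.76), with cyclosporin A from 6.40, 6.40 and 6.82 to 5.46, 5.65 and 5.75 (-0.92), and with nefazodone from 6.90, 7.08 and 7.25 to 6.47, 6.49 and 6.49 (-0.59). The groups did not overlap, and the SE was 0.11 throughout (limma adjusted p = 5.22e-05, 1.18e-06 and 0.00077). With atazanavir, CARS2 went from 8.28, 8.44 and 8.56 to 7.72, 7.78 and 7.80 (-0.66) and LARS2 from 7.73, 7.76 and 7.81 to 7.21, 7.27 and 7.36 (-0.49). With cyclosporin A, NARS2 went from 7.26, 7.41 and 7.59 to 6.62, 6.69 and 6.84 (-0.71) and VARS2 from 8.03, 8.17 and 8.36 to 7.48, 7.52 and 7.52 (-0.68). All 4 pairs of groups were apart. AARS2, FARS2 and HARS2 rose with cyclosporin A, by 0.58, 0.30 and 0.22, and median centring gave 6 mitochondrial genes higher and 3 lower there. With nefazodone, LARS2 went from 7.03, 7.06 and 7.36 to 6.52, 6.58 and 6.59 (-0.59) and IARS1, a cytosolic gene, from 11.57, 11.63 and 11.97 to 11.29, 11.36 and 11.44 (-0.36).

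In counts, 4 synthetase genes were higher and 8 lower when the mix was added to atazanavir (37.5%, against 19.2% of all genes, 8.95% higher and 10.3% lower), 11 higher and 5 lower with cyclosporin A (50%, against 36.8%, 18.4% in each direction), and 1 higher and 6 lower with nefazodone (21.9%, against 15.5%, 7.55% higher and 7.92% lower). With median centring the split was 3 higher and 10 lower for atazanavir and 19 higher and 4 lower for cyclosporin A, and with quantile normalization 8 higher and 7 lower for cyclosporin A. The cyclosporin A split therefore moves with the scaling. Hepatocyte markers moved differently in these comparisons: 6 of 9 rose and none fell when the mix was added to atazanavir (median 0.90), 8 of 9 fell with cyclosporin A (median -1.92) and 1 of 9 fell with nefazodone (median 0.04). Of 7 cholangiocyte markers 4 rose with atazanavir. The part of these shifts in the synthetase changes was not tested.

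The drug response differed with and without the mix for some members, tested as the interaction of drug and mix. It was called for 9 of 32 genes with atazanavir (28.1%, against 12.4% of all genes), 8 with cyclosporin A (25%, against 25.9%) and 6 with nefazodone (18.8%, against 11.9%). Of the atazanavir calls 3 were higher and 6 lower (all genes 5.07% and 7.29%), of the cyclosporin A calls 4 and 4 (10.9% and 15%), and of the nefazodone calls 0 and 6 (4.57% and 7.31%). SARS2 was called with all 3 drugs, at -0.59, -0.66 and -0.55 (SE 0.15 each). All 3 interactions use the same control and mix arrays, between which SARS2 rose by 0.51, so these calls are not independent. The SARS2 level was 5.53, 5.67 and 5.82 with atazanavir plus the mix, 5.33, 5.48 and 5.55 with cyclosporin A plus the mix and 5.26, 5.43 and 5.52 with nefazodone plus the mix, all below the 6.06 to 6.16 of the mix by itself. The nefazodone call for SARS2 was lost without nefazodone replicate 3 or replicate 1 of nefazodone plus the mix (limma adjusted p = 0.0614 and 0.0589). LARS2 was called with atazanavir, -0.56 ± 0.13 (limma adjusted p = 0.00667), and nefazodone, -0.66 ± 0.13 (limma adjusted p = 0.0019).

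VARS2 had the largest interaction of any member, -0.98 ± 0.11 with cyclosporin A (limma adjusted p = 1.9e-06): the drug lowered it by 0.27 without the mix and by 1.25 with it. Of 15 cytosolic genes 4 were called higher in this interaction and none lower (26.7%, against 25.9% of all genes in either direction). The rise of LARS1 was larger by 0.75 ± 0.11 (limma adjusted p = 1.77e-05) and that of FARSB by 0.63 ± 0.15 (limma adjusted p = 0.0027). LARS1 read 10.05, 10.05 and 10.08 with cyclosporin A plus the mix, above the 9.52, 9.66 and 9.69 of the drug without it. With atazanavir, the rise of AARS1 and YARS1 over the matching cells without the drug was larger in the presence of the mix, by 0.44 and 0.41. The rise of NARS1 was smaller, by -0.42 ± 0.08 (limma adjusted p = 0.00196). For AARS1 the starting level differed: its mean was 8.41 in control cells and 8.03 with the mix, against 8.79 with atazanavir and 8.86 with both. The array values behind these differences were close within groups. NARS1 read 11.29, 11.38 and 11.41 in control cells and 12.01, 12.04 and 12.13 with atazanavir, against 11.34, 11.38 and 11.43 with the mix and 11.62, 11.66 and 11.70 with both. All 3 arrays with both lay below the 3 with atazanavir and above those with the mix. YARS1 read 8.32, 8.39 and 8.40 with the mix and 9.54, 9.58 and 9.62 with atazanavir plus the mix, and AARS1 read 8.83, 8.83 and 8.91 in the latter group, both above the arrays of atazanavir without the mix. FARSB read 8.09, 8.21 and 8.53 in control cells and 9.34, 9.40 and 9.66 with cyclosporin A, against 7.99, 8.12 and 8.16 with the mix and 9.85, 9.90 and 9.98 with both. The mix thus separated the cyclosporin A arrays, upwards, and not the control arrays. For atazanavir the mix separated FARSB downwards, from 9.11, 9.13 and 9.21 to 8.93, 8.93 and 8.97.

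With nefazodone the called differences were all negative. PARS2 read 6.13, 6.16 and 6.32 in control cells and 6.80, 6.84 and 6.96 with nefazodone, against 6.36, 6.40 and 6.41 with the mix and 6.46, 6.53 and 6.72 with both, a difference of -0.48. HARS1 was at -0.52 ± 0.11 (limma adjusted p = 0.00393) and HARS2 at -0.36 ± 0.10 (limma adjusted p = 0.0278). The PARS2 call was lost without any 1 of 9 of the 12 arrays, and the HARS2 call without any 1 of 5, at limma adjusted p of 0.0522 to 0.0907. Under median centring, which moved the median of all genes by 0.21 for the cyclosporin A interaction, 17 members were called higher and 3 lower in place of 4 and 4. For nefazodone the split of 0 higher and 6 lower became 2 higher and 3 lower.

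**Figure D4:**
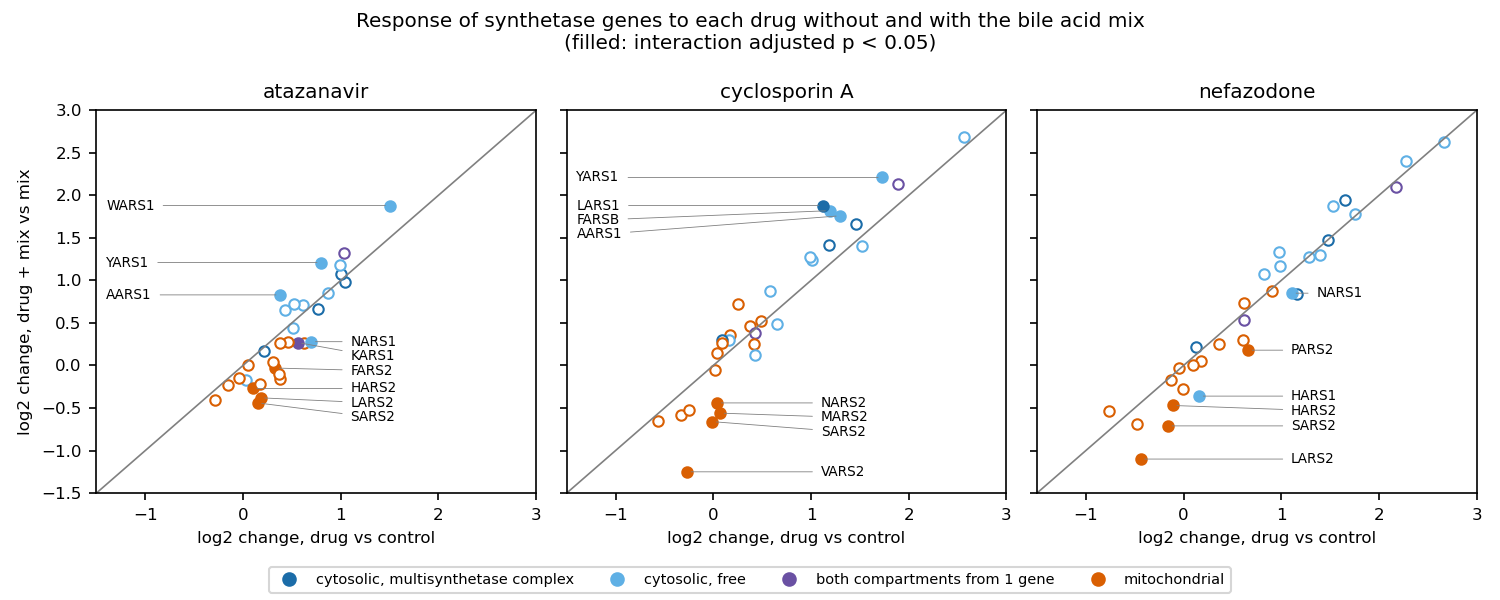
Log2 change of 32 synthetase genes with each drug against control (horizontal axis) and with drug plus mix against the mix (vertical axis), coloured by class, with the line of equal change. Filled, named points have an interaction adjusted p under 0.05. VARS2 with cyclosporin A (-0.98) lies farthest below the line and LARS1 with cyclosporin A (0.75) farthest above it.

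HARS1 and HARS2 make a special pair, since they encode the cytosolic and the mitochondrial histidyl enzyme from neighbouring genes. RefSeq places their start sites on chromosome 5 at 140691370 (HARS1, minus strand) and 140691455 (HARS2, plus strand), 85 bases apart, so that the promoter windows overlap by 184 bases. Neither gene was called with any drug in the absence of the mix. HARS2 changed by 0.10, 0.02 and -0.11, beside 0.03, 0.16 and 0.16 for HARS1. With nefazodone plus the mix against the mix both fell, HARS1 from 8.46, 8.51 and 8.53 to 8.04, 8.11 and 8.28 (-0.36 ± 0.08, limma adjusted p = 0.000604) and HARS2 from 7.96, 8.01 and 8.05 to 7.41, 7.59 and 7.62 (-0.47 ± 0.07, limma adjusted p = 1.17e-05). Under median centring the HARS1 fall was -0.16 and no longer called (limma adjusted p = 0.0881). Adding the mix to cyclosporin A raised both, by 0.36 and 0.22, and the smaller HARS2 call was lost without cyclosporin A replicate 1 or replicate 3 of the combination (limma adjusted p = 0.0871 and 0.0622). With cyclosporin A plus the mix against the mix they parted: HARS1 rose by 0.30 and HARS2 was at -0.05, a value that became 0.21 under median centring.

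The stress response list holds known ATF4 targets and partners, and most of it rose with the drugs, like the cytosolic enzymes. It was chosen with earlier results of these data known, so its rise is no independent evidence. Of its 16 genes, 15 rose with atazanavir (median 1.07), 14 with cyclosporin A (median 1.69) and 15 with nefazodone (median 1.87), and none fell. Of all genes 22.2%, 22.2% and 25% were called higher. ATF4 itself rose by 0.84, 1.44 and 1.25, and ASNS, asparagine synthetase, by 2.27, 2.61 and 2.72. DDIT3, the transcription factor CHOP, rose by 1.29, 3.30 and 3.86, and TRIB3, a pseudokinase induced by ATF4, by 1.15, 2.71 and 3.85. With the mix by itself 1 of the 16 rose (ATF3, by 0.70) and 4 fell, among them ATF4, by 0.24, and PSAT1, by 0.56. Of all genes 6.78% were called higher and 3.37% lower with the mix. The mix and the drugs thus differed for this list as they did for the cytosolic synthetases, and no test joins the lists.

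Other genes of tRNA charging and translation were counted from fixed lists. XPOT, which exports tRNA from the nucleus, rose by 1.32, 1.64 and 2.22. Of 3 cytosolic elongation factor genes measured, 1 rose with atazanavir and 3 with each other drug, EEF1D by 0.58, 0.78 and 0.65. Of 7 mitochondrial translation factors, 4 rose with atazanavir, 6 with cyclosporin A and 3 with nefazodone, which also lowered 1. For both lists, the shares of all genes called higher were 22.2%, 22.2% and 25%, with 20.6% called lower with nefazodone. QRSL1, a subunit of the mitochondrial enzyme that makes glutaminyl-tRNA from glutamyl-tRNA, rose by 0.39, 1.00 and 1.18, more than any mitochondrial synthetase with the last 2 drugs. MTFMT, which formylates the initiator tRNA of mitochondria, rose by 0.32 and 0.42 with atazanavir and nefazodone and was at -0.04 with cyclosporin A.

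The genes whose promoters carry TGATGNAA can be read against these values. The 5 cytosolic ones and GARS1 rose with every drug, between 0.38 for AARS1 with atazanavir and 2.17 for GARS1 with nefazodone. Genes with a promoter entry and no match included WARS1, which rose more than any of these with each drug, SARS1, which rose by 0.43, 1.52 and 1.75, and HARS1, with 0.03, 0.16 and 0.16, none called. YARS2, the mitochondrial gene with a match, rose by 0.38 and 0.36 with atazanavir and nefazodone and was at 0.09 with cyclosporin A, a value not called. Matches were thus present in some of the genes that rose and absent from others.

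In mouse liver 6 weeks after bile duct ligation, the synthetases moved in no common direction. Of 35 genes 8 were higher and 7 lower, 42.9% called against 41.6% of all genes (20.5% higher and 21.1% lower), and the cytosolic class had 4 higher and 4 lower. No change reached 2-fold. The split depends on the scaling: quantile normalization gave 7 higher and 18 lower, and median centring, which shifted the median of all genes by -0.12, gave 6 higher and 17 lower. Vars, Gars, Fars2, Qars, Lars and Pars2 stayed higher and called under both. Tars, Aars, Rars2, Farsb, Mars1, Nars2 and Aars2 stayed lower and called under both. The Qars rise depended on the probe set, as given below. Sham replicate 2 stood apart in intestinal epithelium markers, whose mean reached 8.75 there against a sham group mean of 6.24. Without it and ligated replicate 1, 14 genes were called in place of 15.

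Vars, the cytosolic valyl enzyme, had the largest rise, with a lowest, median and highest level of 7.78, 8.21 and 8.42 in sham livers and 8.64, 8.93 and 9.04 after ligation. The groups did not overlap, and the change was 0.74 ± 0.11 (SE, n = 6 a group; limma adjusted p = 0.000198). Gars was at 9.58, 9.72 and 9.89 in sham livers and 10.30, 10.34 and 10.48 after ligation, 0.64 ± 0.07 higher (limma adjusted p = 1.14e-05), again without overlap. Tars had the largest fall, from 10.68, 10.81 and 11.05 to 10.31, 10.35 and 10.41, or -0.49 ± 0.07 (limma adjusted p = 0.000131), and these groups were apart as well. Mitochondrial Fars2 rose by 0.45 and Rars2 fell by 0.32.

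Among the genes that stood out in HepaRG cells, Aars went from 11.05, 11.12 and 11.51 in sham livers to 10.63, 10.82 and 11.07, a fall of 0.37 ± 0.10 (limma adjusted p = 0.00709) with overlapping groups. Wars was at 7.35, 7.61 and 7.76 in sham livers and 7.49, 7.68 and 8.59 after ligation, and Kars at 8.96, 9.22 and 9.28 against 9.17, 9.35 and 9.42, and neither was called. Lars2 was at 6.23, 6.40 and 6.48 against 6.37, 6.45 and 6.51 and Hars2 at 7.60, 7.79 and 8.04 against 7.53, 7.68 and 7.84, also not called. Lars2 was 0.07 higher and became -0.05 with median centring, and Hars2, at -0.13, was called lower under both other scalings. Eprs went from 9.91, 10.16 and 10.26 to 10.25, 10.34 and 10.44, a rise of 0.21. Qars, the glutaminyl enzyme, went from 9.39, 9.44 and 9.72 to 9.68, 9.85 and 9.91, a rise of 0.32, and for both other probe sets gave changes of the opposite sign (-0.17 and -0.21 for Eprs, -0.08 and -0.29 for Qars). The Eprs call was lost without ligated replicate 2 or 5 (limma adjusted p = 0.0535 and 0.0505) and under both other scalings. The Qars change was 0.05 with the mean of its probe sets and not called (limma adjusted p = 0.414). With its most variable probe set, Qars was called lower, at -0.29 (limma adjusted p = 0.0205). Of the 16 stress response genes 4 rose and 4 fell (all genes 20.5% and 21.1%), with a median of -0.01. Atf3 rose by 1.79, Asns by 0.69 and Ddit4 by 0.91, and Atf4 fell by 0.49.

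**Figure D5:**
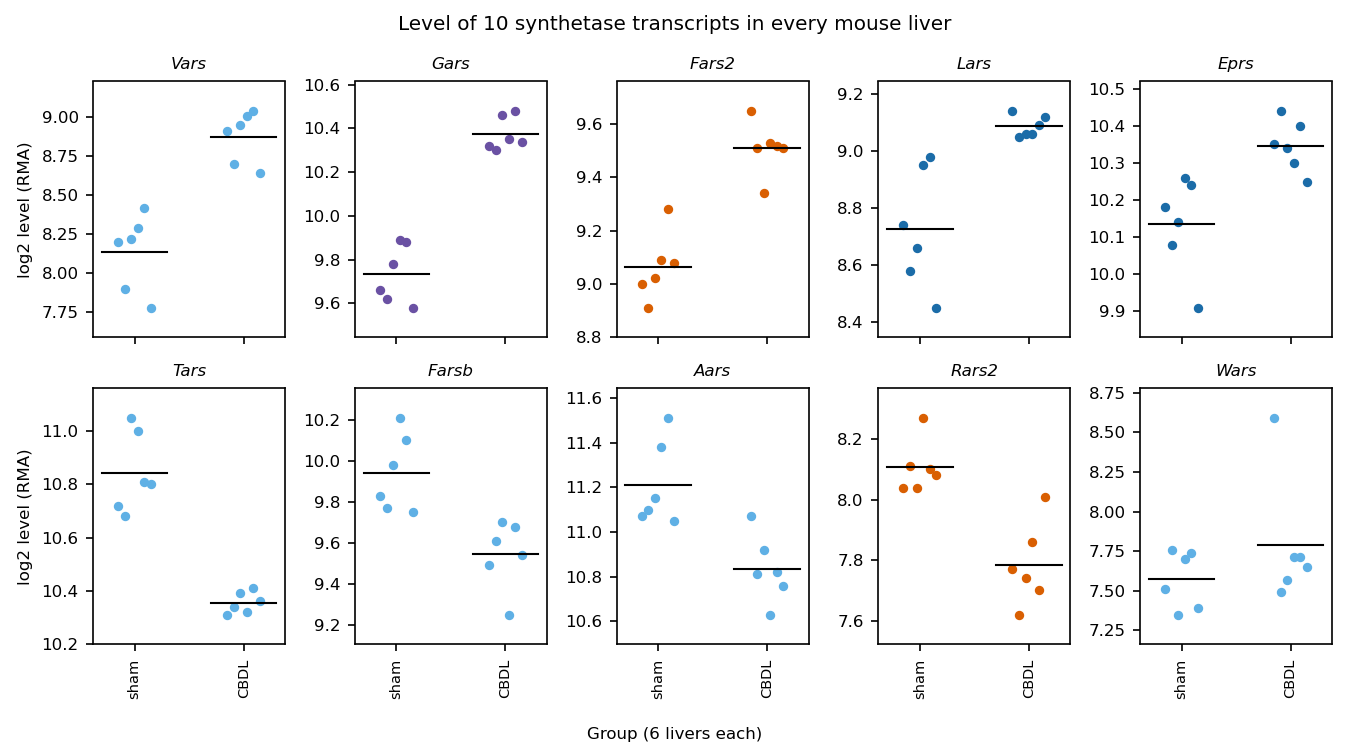
Log2 level of 10 synthetase transcripts (vertical axes, each on its own scale) in each of 6 sham-operated and 6 bile duct ligated (CBDL) livers, with a bar at the group mean. Vars, Gars, Fars2, Lars, Tars, Farsb and Rars2 have no overlap between groups, and 1 ligated liver stands apart for Wars at 8.59.

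Cell type markers moved with ligation. The mean of 6 of 6 stellate cell and fibroblast markers was 6.78 to 7.58 in sham livers and 8.44 to 9.09 after ligation, that of 6 of 6 macrophage markers 7.54 to 8.11 and 8.30 to 9.40, that of 6 of 7 cholangiocyte markers 4.93 to 6.21 and 5.73 to 7.67, and that of 6 of 6 neutrophil markers 5.50 to 5.98 and 5.96 to 8.76. The mean of 8 of 10 hepatocyte markers was 14.04 to 14.17 and 14.11 to 14.19. The part of these shifts in the synthetase changes was not tested.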

How the data were processed

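The members and gene lists were chosen with earlier results of these data known. The authors deposited a log2 level for each probe set after RMA, per the submitters' processing notes; a version and the annotation used are not given in the sources used here. Gene symbols came from the array platform's annotation: 41091 human and 34945 mouse probe sets had 1 symbol, 1801 and 932 had several and 11721 and 9160 had none, apart from 62 and 64 control probe sets. Only probe sets with 1 symbol were used, with the one of highest mean for each gene. Symbols were updated through RefSeq, which also supplied the promoters. Values were fitted as deposited with limma 3.58.1 (R 4.3.3; lmFit and eBayes, no filter, 1 mean a group), the 24 HepaRG arrays in 1 fit (16 residual degrees of freedom, 20.9 with the prior) and the 12 mouse arrays in another (10 and 13.9). Adjusted p-values are Benjamini-Hochberg over all genes, with a threshold of 0.05. The scripts were tested on simulated data. The number of arrays limits the precision.

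Levels were printed in every HepaRG sample, and as the lowest, median and highest of 6 for mouse liver, for the 4 largest called changes of each drug, the 3 largest of the mix, of the mix added to a drug and of ligation, called interaction members (up to 5 a contrast), and AARS1, GARS1, KARS1, WARS1, LARS2, HARS2, EPRS1 and QARS; other genes are given by change. The design text speaks of 3 HepaRG batches, and the labels do not say that a replicate number marks a batch. Same-numbered arrays deviated together, with every correlation above 0.1, for the mix against control (0.19 to 0.26), nefazodone against control (0.11 to 0.18), cyclosporin A plus mix against mix (0.11 to 0.13) and nefazodone plus mix against nefazodone (0.13 to 0.29), and not for the other pairs of groups. Alternatives were the mean of a gene's probe sets, the probe set of largest variance, quantile normalization, median centring, removal of the dimmest 1 in 3 genes, a trended robust prior, the replicate number as a block, only the compared groups in the fit, and each array left out in turn. Where the labels do not name separate animals or cultures, p-values measure only the spread between these samples.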

Additional observations from a re-analysis of the deposited data

Results flagged for a closer look

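The response to a drug differed with and without the mix (limma interaction, adjusted p under 0.05) for these members, with the difference in log2 change. With atazanavir it was 0.44 for AARS1, -0.36 for FARS2, -0.37 for HARS2, -0.29 for KARS1, -0.56 for LARS2, -0.42 for NARS1, -0.59 for SARS2, 0.38 for WARS1 and 0.41 for YARS1. With cyclosporin A it was 0.46 for AARS1, 0.63 for FARSB, 0.75 for LARS1, -0.63 for MARS2, -0.48 for NARS2, -0.66 for SARS2, -0.98 for VARS2 and 0.48 for YARS1. With nefazodone it was -0.52 for HARS1, -0.36 for HARS2, -0.66 for LARS2, -0.26 for NARS1, -0.48 for PARS2 and -0.55 for SARS2. With the replicate number as a block the NARS1 value with nefazodone was -0.26 and no longer called (limma adjusted p = 0.0531). The NARS1 and PARS2 calls with nefazodone were lost without any 1 of 10 and 9 of the 12 arrays, and the HARS2 calls without any 1 of 3 arrays with atazanavir and 5 with nefazodone. The second KARS1 probe set gave -0.16 in place of -0.29, which was not called.

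In mouse liver, 1 of 6 arrays stood apart from its group by Dixon's ratio for 7 genes of 35. Each gene was checked in both the sham and the ligated group, and chance flags about 1 in 20 groups. Wars was 8.59 in ligated replicate 1, with the next array at 7.71. In that liver the interferon-induced genes Ido1, Gbp2 and Cxcl10 were at 6.30, 9.88 and 8.39, the highest of the 12 livers, and their part in the Wars value was not tested. Cars2 was 7.48 and Nars 11.46 in sham replicate 5, Rars2 8.27 in sham replicate 4 and Yars2 7.25 in sham replicate 2. Mars1 was 9.37 in ligated replicate 4 and Qars 9.68 in ligated replicate 2.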

How the results depend on the processing

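With the replicate number as a block the number of called members stayed at 6 for the mix and 24 for atazanavir against control, and it changed no call of a pair of groups whose numbers pair the samples. It took the NARS1 call in the nefazodone interaction (-0.26, limma adjusted p = 0.0531), whose groups are paired in part, and those of VARS2 between cyclosporin A and nefazodone and Aars2, Mars2 and Nars2 after ligation, where the numbers do not pair the samples. The number of cytosolic genes called higher with a drug, with or without the mix, stayed between 12 and 15 of 15 under all alternatives run. Under median centring the called members went from 6 to 10 for the mix, from 8 to 20 for the cyclosporin A interaction and from 15 to 23 after ligation, where quantile normalization gave 25. With only the compared groups in the fit, which leaves fewer arrays, they went from 6 to 3 for the mix, 16 to 8 for the mix added to cyclosporin A, 7 to 2 for the mix added to nefazodone, 19 to 11 between atazanavir and cyclosporin A and 18 to 10 between cyclosporin A and nefazodone, and mitochondrial calls with cyclosporin A from 7 to 4. Leaving out 1 array gave 3 to 5 calls for the nefazodone interaction in place of 6 (3 without control replicate 3, nefazodone replicate 3 or nefazodone plus mix replicate 2), 4 to 7 for the mix added to nefazodone in place of 7 (4 without nefazodone replicate 3), and 4 to 7 mitochondrial calls for atazanavir plus mix in place of 8 (4 and 5 without replicates 1 and 2 of that group).

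Signs turned mainly for changes near 0 or with another probe set, and the cause was not tested. For the mix, WARS1 became -0.05 with the mean of its probe sets, KARS1 -0.10 and EPRS1 0 with the most variable probe set, and EPRS1 0.01 and GARS1 0.04 with quantile normalization. Without 1 array EPRS1 ranged from -0.11 to 0.08 (0.06 among them) and GARS1 from -0.07 to 0.05 (0 among them). HARS2 with cyclosporin A became -0.03 and -0.01 without 1 array, and 0.21 with centring for cyclosporin A plus mix. The most variable probe set gave 0.12 for WARS2 with cyclosporin A, -0.27 for EARS2 with cyclosporin A plus mix, and -0.27 for SARS1 when the mix was added to atazanavir. After ligation it gave -0.21 for Eprs, -0.29 for Qars, 0.03 for Hars2 and -0.20 for Lars2, and Lars2 was -0.10 with the mean of its probe sets and -0.05 with centring.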
